A study of Mus musculus with 8 samples.

Results

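Atp1b1, Atp1b2, Atp1b3 and Fxyd1 encode parts of the sodium pump, the Na,K-ATPase of the plasma membrane. The 4 genes were the rows of the deposited expression table that carried these symbols, 4 of its 22798 genes. They were selected on their measured levels at the 4 stages in these same libraries, so their differences between stages are a description without a test. The sodium pump exports sodium and imports potassium at the cost of ATP, and this gradient drives the sodium-coupled uptake of amino acids, phosphate and vitamins. Its alpha subunit holds the ATPase and the binding site for ouabain. Its beta subunit is a glycoprotein that the alpha subunit needs to fold, to leave the endoplasmic reticulum and to reach the membrane. Atp1b1, Atp1b2 and Atp1b3 encode the beta 1, beta 2 and beta 3 subunits. Fxyd1 encodes phospholemman, which is no core subunit but a small membrane protein of the FXYD family that binds the alpha-beta complex and tunes its affinity for ions.

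RNA was sequenced from 3T3-L1 cells, an established mouse fibroblast-like line, derived from Swiss albino mice, that hormones turn into fat cells. There were 4 stages with 2 libraries each. Proliferating cells grew exponentially, and quiescent cells had been held at confluence for 48 hours. Neither of these groups had received hormones. Clonal expansion was sampled 10 hours after addition of insulin (written as 5 µg/µl in the labels, a unit that could not be checked), 1 µM dexamethasone (a glucocorticoid) and 0.25 mM isobutylmethylxanthine, which raises cyclic AMP. Differentiated cells were sampled 6 days after that addition, having had the mixture for 48 hours and insulin alone afterwards. All groups grew in the same serum-containing medium.

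The values are pseudo-counts, which are read counts that the authors adjusted for library size. Their totals still differed, from 122413485 to 151529060 per library. Within a stage the labels call the libraries experiments 1 and 2 and do not name separate cultures, so a p-value reflects the spread among libraries alone, and that spread may be technical. The summed level of 9 fat cell markers lay between 11065 and 18580 in the 6 libraries before differentiation and between 2481000 and 2485000 at differentiation. All 6 markers of preadipocytes or fibroblasts were present at every stage. The summed level of 5 markers of dividing cells was 83819 to 119540 at proliferation, 36321 to 38801 at quiescence, 81964 to 92321 at clonal expansion and 16704 to 19788 at differentiation. In these bulk samples a transcript carried by fewer cells and one at a lower level per cell cannot be told apart.

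Atp1b1 was abundant in all libraries before differentiation and low in the differentiated ones. The beta 1 subunit is the most widespread beta subunit of mammalian tissues. Its gene (identifier 11931 in the table) lies at chr1:166367428-166388486 in mm9. It measured 20886 and 23553 pseudo-counts in proliferation, 29094 and 26800 in quiescence, 29290 and 30265 in clonal expansion, and 2113 and 1750 in differentiation. Both differentiated libraries lay far below the other 6, and the quiescent and clonal expansion libraries lay above the proliferating ones. The mean at differentiation was 15.4-fold below that at clonal expansion, a log2 fold change (log2FC, computed throughout on value + 1) of -3.95 ± 0.12 (SE), 14.5-fold below quiescence (log2FC -3.86) and 11.5-fold below proliferation (log2FC -3.53). Quiescence was above proliferation by a log2FC of 0.33 ± 0.12. The log2FC of clonal expansion against quiescence was 0.09 as deposited but -0.14 with every library scaled to the same total and -0.21 with quantile normalization, so the order of these neighbours is not set.

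Atp1b3 was highest in differentiated cells, the stage where Atp1b1 was lowest. The beta 3 subunit is expressed widely and can replace beta 1 in the pump. Its gene (identifier 11933) lies at chr9:96233095-96264718 in mm9. It measured 12019 and 14365 pseudo-counts in proliferation, 10393 and 8871 in quiescence, 19632 and 17352 in clonal expansion, and 21742 and 21703 in differentiation. The libraries of no pair of stages overlapped. Clonal expansion was above quiescence by a log2FC of 0.94 ± 0.12, and quiescence was below proliferation by a log2FC of -0.45. Differentiation was above quiescence by 1.18 but above clonal expansion by only 0.24 ± 0.12, so most of the rise came at clonal expansion. With the same total per library, the log2FC was 0.71 for clonal expansion and 0.94 for differentiation, each against quiescence. The plot of the 4 genes by library shows Atp1b1 and Atp1b3 parting at differentiation.

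**Figure D1:**
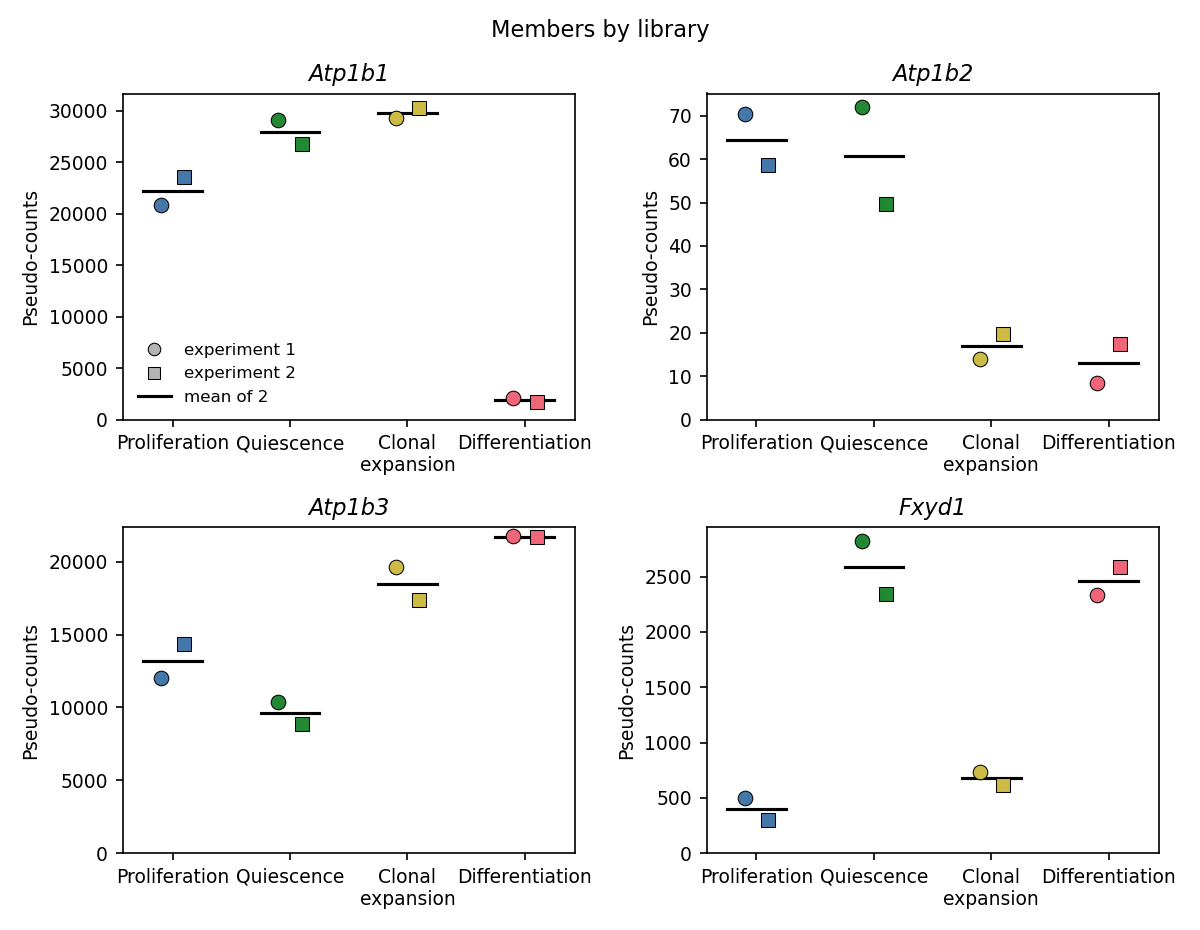
Pseudo-counts (linear axis from 0, a separate scale for each gene) of the 4 genes in the 8 libraries, with circles for experiment 1, squares for experiment 2 and a line at the mean of the 2. The differentiated libraries are the lowest for Atp1b1 (2113 and 1750) and the highest for Atp1b3 (21742 and 21703), and Fxyd1 is high at quiescence and at differentiation.

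RefSeq's promoter table for GRCm38.p6, another build than that of the expression table, had entries for 3 of the 4 genes. The 250 bases before the start are shown for Atp1b1 and Atp1b3 because these genes lay at opposite ends of their ranges at differentiation. Capitals mark the GC box (GGGCGG on either strand, thus also CCGCCC), the CCAAT box (CCAAT or ATTGG) and the half-site of the cyclic AMP response element (TGACG or CGTCA). Also searched on both strands were the TATA box (TATAAA) and the half-site of the glucocorticoid receptor (AGAACA), and none of these motifs overlaps another in the windows printed. The windows, both on the minus strand, are chr1:164458356-164458605 for Atp1b1 and chr9:96364432-96364681 for Atp1b3, the one of its 2 entries at the gene's outer edge.
Atp1b1: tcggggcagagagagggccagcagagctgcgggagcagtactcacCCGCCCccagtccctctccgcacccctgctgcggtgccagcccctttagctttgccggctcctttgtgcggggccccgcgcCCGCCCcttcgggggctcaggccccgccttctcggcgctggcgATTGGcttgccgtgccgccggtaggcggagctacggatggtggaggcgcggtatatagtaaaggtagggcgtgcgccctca
Atp1b3: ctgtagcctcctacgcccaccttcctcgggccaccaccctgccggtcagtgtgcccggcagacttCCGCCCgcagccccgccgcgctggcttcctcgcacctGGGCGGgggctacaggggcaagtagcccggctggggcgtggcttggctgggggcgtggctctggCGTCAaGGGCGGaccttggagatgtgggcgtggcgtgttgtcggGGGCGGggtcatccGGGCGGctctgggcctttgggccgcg
Both windows are rich in G and C, at 70.4% for Atp1b1 and 73.6% for Atp1b3 against a median of 52.4% over 32851 promoter windows of the same length, and each holds 24 CpG where the median is 6. Atp1b1 had 2 matches to the GC box and 1 to the CCAAT box. Atp1b3 had 5 matches to the GC box and 1 to the cyclic AMP half-site, 84 bases before the start. Of all windows, 32.7% held the GC box, 33.8% CCAAT, 17.8% TGACG, 12.4% TATAAA and 16.1% AGAACA. These matches describe the letters alone, and no binding was measured.

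Of the beta genes, Atp1b1 led before differentiation and Atp1b3 led in differentiated cells. For this comparison between genes, pseudo-counts were divided by transcript length (longest transcript of GENCODE M21, 2580 bases for Atp1b1, 1994 for Atp1b3 and 2842 for Atp1b2). Per kilobase, Atp1b1 made up 57.2% and 55.8% of the sum of the 3 genes in the proliferating libraries, 68.3% and 69.9% in the quiescent, 53.5% and 57.4% in the clonal expansion, and 6.98% and 5.86% in the differentiated ones. Atp1b3 made up 43.3% ± 1.02 (SD, n = 2), 30.8% ± 1.14, 44.5% ± 2.73 and 93.5% at those stages. Atp1b1 was thus ahead in every one of the 6 libraries before differentiation, by the widest margin in the quiescent ones. Such a share within a library does not depend on how libraries are scaled, but it does depend on the transcript lengths taken.

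The ratio of Atp1b1 to Atp1b3 per kilobase was 1.31 ± 0.0537 (SD, n = 2) at proliferation, 2.25 ± 0.121 at quiescence, 1.25 ± 0.138 at clonal expansion and 0.0687 ± 0.00904 at differentiation. As deposited, without division by length, the log2 ratio was 0.76, 1.54, 0.69 and -3.50. On both scales the ratio was highest at quiescence, the stage where Atp1b3 was lowest. The sum of the 3 beta genes per kilobase was 15251 ± 1560 (SD, n = 2), 15684 ± 1174, 20822 ± 540 and 11647 ± 111 pseudo-counts at the 4 stages. Atp1b3 was above Atp1b1 by 14.7-fold per kilobase at differentiation, and the beta sum there was lower than at any other stage. Among tested genes with a length, 13926 in all, the level of Atp1b1 per kilobase ranked at the percentiles 93.5 to 95.6 before differentiation and 41.5 to 44.9 in differentiated cells, while that of Atp1b3 stayed at 86.5 to 93.8.

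**Figure D2:**
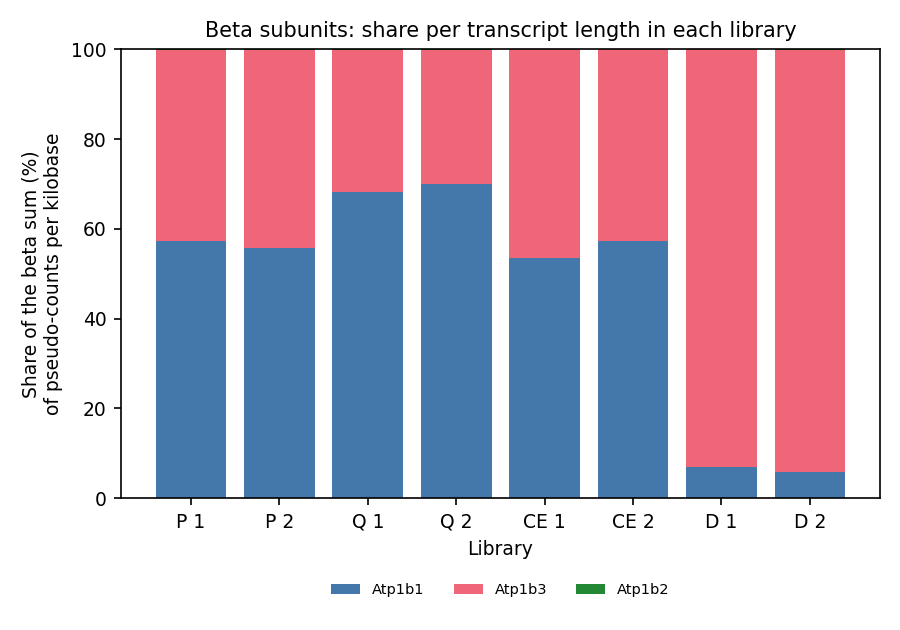
Share (%) of each beta gene in the sum of pseudo-counts per kilobase of transcript, in each library of proliferation (P), quiescence (Q), clonal expansion (CE) and differentiation (D). Atp1b3 fills 93.0% and 94.1% of the bars at differentiation, where Atp1b1 fills 6.98% and 5.86%.

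Atp1b2 was close to the floor at every stage and lower after the hormones than before. The beta 2 subunit is known from glia, where it was described as an adhesion molecule. Its gene (identifier 11932) lies at chr11:69413252-69419462 in mm9. It measured 70.3 and 58.7 pseudo-counts in proliferation, 71.9 and 49.7 in quiescence, 14.1 and 19.8 in clonal expansion, and 8.51 and 17.5 in differentiation. The proliferating and quiescent libraries overlapped, as did those of clonal expansion and differentiation, and each library of the first 2 stages lay above each of the last 2. The log2FC was -1.78 ± 0.39 (SE) for clonal expansion against quiescence and -2.20 for differentiation against quiescence. Between differentiation and clonal expansion it was -0.42, and 0.06 without the library differentiation 1. Per kilobase, Atp1b2 reached at most 0.175% of the beta sum in any library, and it ranked at the percentiles 3.1 to 13.4 of the tested genes.

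Fxyd1 was high at quiescence and differentiation, and lower at proliferation and clonal expansion. Phospholemman is best known from heart and skeletal muscle, where its phosphorylation by protein kinase A relieves its inhibition of the pump. Its gene (identifier 56188) lies at chr7:31836697-31840675 in mm9. It measured 495 and 304 pseudo-counts in proliferation, 2823 and 2346 in quiescence, 737 and 616 in clonal expansion, and 2338 and 2585 in differentiation. The quiescent and differentiated libraries overlapped with each other and lay above the other 4, and both clonal expansion libraries lay above both proliferating ones. Quiescence was 6.47-fold above proliferation (log2FC 2.73 ± 0.22), clonal expansion was 3.82-fold below quiescence (log2FC -1.93), and differentiation was 3.64-fold above clonal expansion (log2FC 1.87). Between differentiation and quiescence the log2FC was -0.07 ± 0.22. The 2 proliferating libraries differed by 0.70 on the log2 scale, and without proliferation 1 or proliferation 2 the log2FC of quiescence against that stage was 3.08 or 2.38.

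The promoter window of Fxyd1 is shown because it differs in make-up from those of the beta genes. It covers the 250 bases before the start at chr7:31054854-31055103 in GRCm38.p6, on the minus strand, with the same marking.
Fxyd1: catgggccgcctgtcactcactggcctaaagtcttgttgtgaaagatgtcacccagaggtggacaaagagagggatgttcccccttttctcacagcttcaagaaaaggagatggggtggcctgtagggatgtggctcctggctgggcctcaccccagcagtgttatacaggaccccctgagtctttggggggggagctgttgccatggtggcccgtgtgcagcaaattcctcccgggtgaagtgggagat
None of the 5 motifs was found in these letters, so no capitals appear. The window had 57.2% G and C and 3 CpG, fewer than in the beta windows, and 29.0% of all windows had fewer CpG.

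Beside Fxyd1 on the chromosome, Fxyd7, a FXYD protein known from brain, ends 224 bases away in the table's mm9 coordinates. Lgi4, a secreted protein needed for myelination of peripheral nerves, starts 4279 bases on the other side. By stage mean both were highest at quiescence and next highest at differentiation, as Fxyd1 was, but lowest at clonal expansion, whereas Fxyd1 was lowest at proliferation. For Fxyd7 the libraries of those lower stages overlapped. Lgi4 measured 1037 and 727 pseudo-counts in proliferation, 2589 and 2733 in quiescence, 405 and 424 in clonal expansion, and 1867 and 1615 in differentiation. It rose at quiescence (log2FC 1.61, adjusted p = 0.00027), fell at clonal expansion (log2FC -2.68, adjusted p = 9.19e-07) and rose at differentiation (log2FC 2.06, adjusted p = 2.41e-06), by limma's test with Benjamini-Hochberg adjustment over 14647 genes. Fxyd7, low in all libraries at 10.2 to 145.9 pseudo-counts, had log2FC of 2.44, -2.94 and 2.09 at these steps (adjusted p = 0.00321, 0.00017 and 0.00138, limma); the first was not called when low genes were kept in the test (adjusted p = 0.0656). Fxyd5, 193 bases beyond Fxyd7, did not follow them at the last step (log2FC -2.44 ± 0.15, adjusted p = 3.41e-07, limma). The libraries were unstranded, so reads from a stretch where genes on opposite strands overlap cannot be told apart. In the table's coordinates Fxyd7, Fxyd1 and Lgi4 do not overlap. Whether their transcripts run past these ends was not tested.

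Genes used here as markers of glia moved with Fxyd1. The summed level of 7 such markers was 985 to 1260 at proliferation, 2410 to 2804 at quiescence, 230 to 285 at clonal expansion and 1844 to 2322 at differentiation. S100b held the largest part of it at quiescence, at 1968 and 1619 pseudo-counts, and at differentiation, at 1320 and 1817. The defining genes Sox10, at most 5.66 in any library, and Aqp4, at most 4.71, were at or near 0. The summed level of 10 markers of skeletal or heart muscle went another way, with 693 to 881 at proliferation and 62.2 to 94.2 at differentiation, and with Myh4 and Actc1 below 1 in both differentiated libraries. The part of any such cells in the level of Fxyd1 was not tested.

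**Figure D3:**
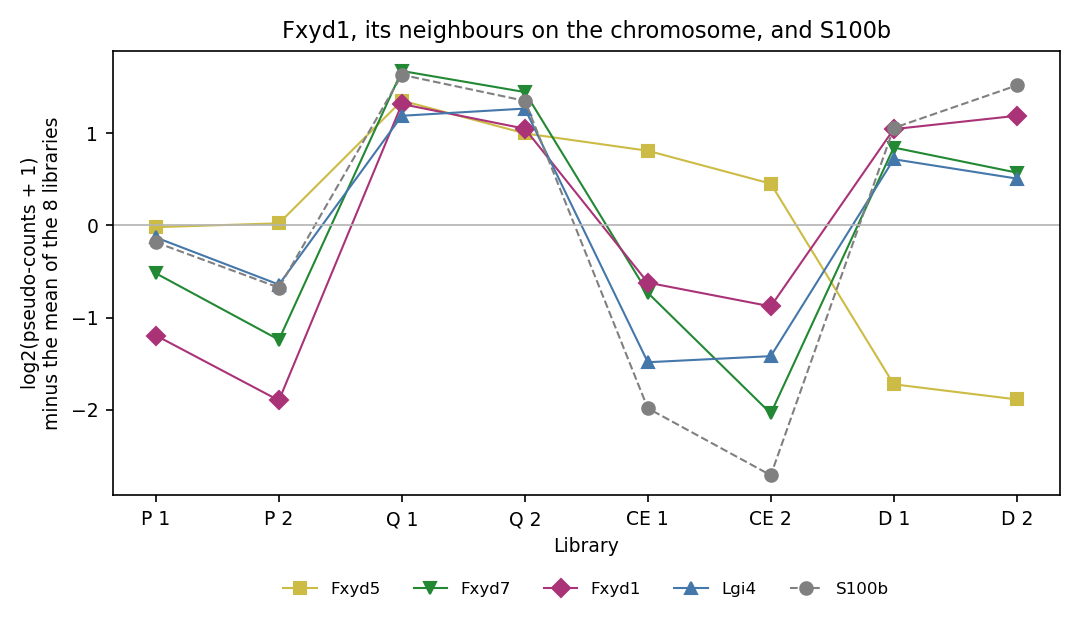
log2(pseudo-counts + 1) of Fxyd1, of its chromosome neighbours Fxyd5, Fxyd7 and Lgi4, and of S100b (dashed), each minus its mean over the 8 libraries, by library of proliferation (P), quiescence (Q), clonal expansion (CE) and differentiation (D). Fxyd1, Fxyd7, Lgi4 and S100b are high at Q and D and low at CE, whereas Fxyd5 is lowest at D.

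The other members had neighbours with patterns of their own. Nme7, a nucleoside diphosphate kinase gene 31 bases from Atp1b1, measured 2579 and 2349 pseudo-counts at clonal expansion and 1780 and 1694 at differentiation, a fall by 0.50 on the log2 scale (adjusted p = 0.00276, limma) beside a log2FC of -3.95 for Atp1b1. Trp53, the tumour suppressor p53, lies 7877 bases from Atp1b2 and rose at clonal expansion (log2FC 0.81, adjusted p = 0.000303, limma), where Atp1b2 was lower. Tfdp2 and Rnf7, at 9030 and 106658 bases from Atp1b3, differed between stages by at most 0.58 on the log2 scale. The table's row for Cdkn2d spans 102746700 bases of chromosome 9 and so overlaps Atp1b3, a span too long for a gene, and its level of at most 294.2 pseudo-counts was small beside that of Atp1b3.

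Over all genes the stages differed widely, and the members' calls stand beside that background. At quiescence against proliferation, 23.7% of the 14647 genes tested passed an adjusted p of 0.05 (limma), 11.9% as higher and 11.8% as lower, and of the 4 members 1 (Fxyd1) was higher and 1 (Atp1b3) lower. At clonal expansion against quiescence 68.8% passed (34.4% higher and 34.4% lower), and 1 member was higher and 2 lower. At differentiation against clonal expansion 73.0% passed (36.8% higher and 36.2% lower), and 1 member (Fxyd1) was higher and 1 (Atp1b1) lower. At differentiation against quiescence 66.3% passed (33.4% higher and 32.9% lower), with 1 member higher and 2 lower. At differentiation against proliferation 67.8% passed (34.5% higher and 33.3% lower), with 2 members higher and 2 lower. At clonal expansion against proliferation 64.9% passed (32.7% higher and 32.1% lower), with 3 members higher and 1 lower. The members were picked for such changes, so nothing is read from these counts. Scaling each library to the same total moved the median log2FC of all genes by -0.24 for clonal expansion against quiescence, where 3768 genes were then higher and 6302 lower in place of 5038 and 5033. The corresponding shifts were -0.23 for differentiation against quiescence (3795 higher and 6314 lower, in place of 4892 and 4825), -0.25 for differentiation against proliferation (3760 and 6518, in place of 5051 and 4876) and -0.27 for clonal expansion against proliferation (3183 and 6400, in place of 4792 and 4708). Against such shifts the 0.42 by which Atp1b1, and the 0.49 by which Atp1b3, lay above proliferation at clonal expansion became 0.15 and 0.22.

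Among the other FXYD genes, Fxyd5, known as dysadherin, a modulator of cell adhesion, was the most abundant before differentiation. It measured 2973 and 3059 pseudo-counts in proliferation, 7694 and 6015 in quiescence, 5278 and 4123 in clonal expansion, and 912 and 814 in differentiation. It rose at quiescence (log2FC 1.17 ± 0.15, adjusted p = 0.000641, limma), as Fxyd1 was higher there, and was lowest at differentiation, where Fxyd1 was high. Per kilobase of transcript, the ratio of Fxyd1 to Fxyd5 was 0.805 and 0.480 in the proliferating libraries, 1.77 and 1.89 in the quiescent, 0.675 and 0.723 in the clonal expansion, and 12.4 and 15.4 in the differentiated ones. Per kilobase, Fxyd1 thus stood above Fxyd5 at quiescence and differentiation and below it at the other stages. The lengths taken were 620 bases for Fxyd1 and 2998 for Fxyd5. Without this division the order at quiescence was reversed, as Fxyd1 measured only 2823 and 2346 pseudo-counts there. Fxyd4, which modulates the pump in the kidney's collecting duct, ranged from 7.38 to 86.0 pseudo-counts, and its rise at clonal expansion (log2FC 1.85, adjusted p = 0.0154, limma) was not called without the library quiescence 1 (adjusted p = 0.12) or clonal expansion 2 (adjusted p = 0.13). Fxyd3 was at most 10.3, and Fxyd2 and Fxyd6, the gamma subunit of the kidney and a brain protein, were at most 1.03 in any library. Of the beta genes outside the 4 members, Atp1b4, a muscle protein of the nuclear envelope in mammals, was at most 1.89.

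**Figure D4:**
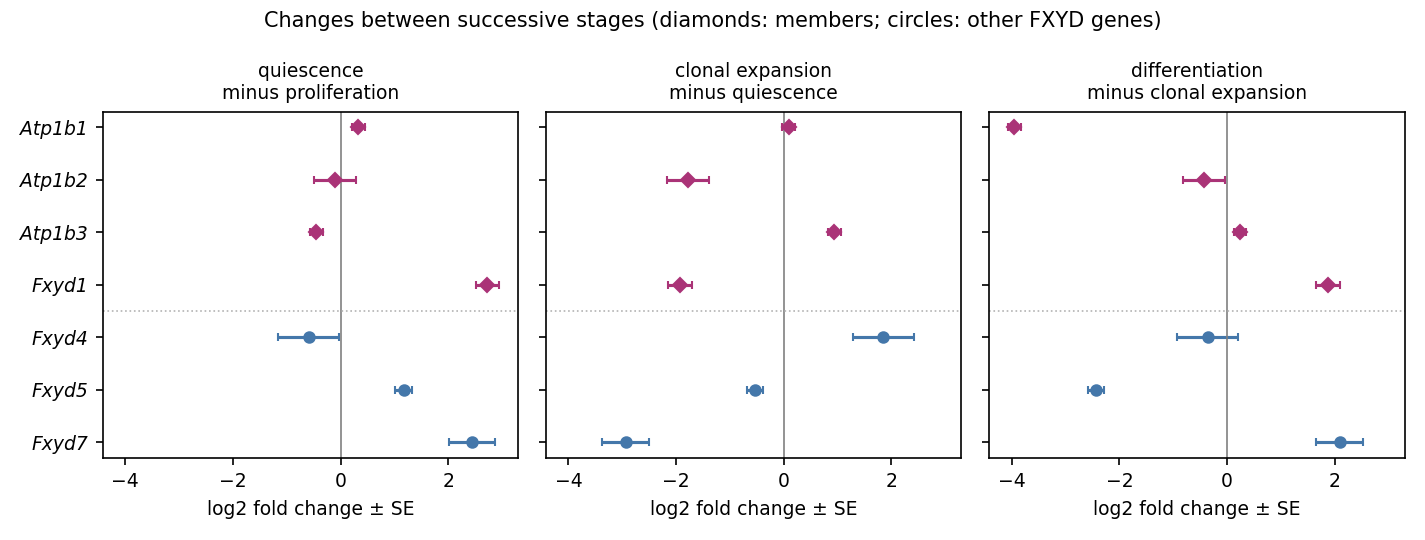
log2 fold change ± SE (limma, on value + 1) of the 4 members (diamonds) and of Fxyd4, Fxyd5 and Fxyd7 (circles) between successive stages. Atp1b1 lies at -3.95 in the last step and near 0 in the first 2, and Fxyd1 lies at 2.73, -1.93 and 1.87 in turn.

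For each member, the genes with the most similar pattern were those with the highest Pearson r of log2(value + 1) over the 8 libraries, among 11629 genes with a mean of at least 200. The libraries of a stage share its conditions, so these r describe 4 stages more than 8 independent points. Atp1b1 was most like Rcn2, a calcium-binding protein of the endoplasmic reticulum (r = 0.9936), Cxcl5, a chemokine (0.9936), and Kctd5 (0.9924). Cxcl5 measured 7517 and 7361 pseudo-counts at clonal expansion and 249 and 329 at differentiation, a larger drop than the 15.4-fold one of Atp1b1. Rcn2 went only from 19931 and 17556 to 7386 and 7099.

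Atp1b3 was most like Cox18, a mitochondrial insertase for a subunit of cytochrome c oxidase (r = 0.9966), Stoml2, a mitochondrial inner membrane protein (0.9934), and Cdc34, a ubiquitin-conjugating enzyme (0.9919). Cox18 measured 1916 and 1669 pseudo-counts at quiescence and 4816 and 4500 at differentiation. Atp1b2 was most like Efr3b (0.9826), Irak4, a kinase of interleukin-1 signalling (0.9757), and Cldn19, a tight junction protein (0.9757). Fxyd1 was most like Lama4, the laminin alpha 4 chain of basement membranes (0.9908), Adck2 (0.9907) and Erlec1, a lectin of the endoplasmic reticulum (0.9846). Lama4 measured 36579 and 29151 pseudo-counts in proliferation, 88158 and 99510 in quiescence, 45262 and 42654 in clonal expansion, and 93541 and 90054 in differentiation, the same order of stages as Fxyd1 over a smaller range.

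Proteins that bind, place or regulate the pump formed a list of 31 gene symbols, of which 30 were in the table and 29 were tested. The other, Sptan1, is a later symbol of Spna2, which was in the table. At quiescence against proliferation 2 rose and 3 fell, at clonal expansion against quiescence 11 rose and 10 fell, and at differentiation against clonal expansion 11 rose and 14 fell, with median log2FC of 0.04, -0.04 and -0.31. As shares, 6.9%, 37.9% and 37.9% rose and 10.3%, 34.5% and 48.3% fell. Of all genes tested, 11.9%, 34.4% and 36.8% rose and 11.8%, 34.4% and 36.2% fell. At differentiation against quiescence 10 rose and 14 fell, against proliferation 9 rose and 14 fell, and at clonal expansion against proliferation 8 rose and 10 fell. In that order, 34.5%, 31% and 27.6% of the list rose and 48.3%, 48.3% and 34.5% fell. The shares of all genes were 33.4%, 34.5% and 32.7% rising and 32.9%, 33.3% and 32.1% falling. Nkain1, a membrane protein that binds the beta 1 subunit, was likewise low at differentiation. It measured 2140 and 2460 pseudo-counts in proliferation, 2047 and 1680 in quiescence, 2463 and 2427 in clonal expansion, and 389 and 524 in differentiation, and it fell at the last step (log2FC -2.44 ± 0.17, adjusted p = 5.92e-07, limma). Nkain2 and Nkain4 of the same family fell a step earlier, at clonal expansion against quiescence (log2FC -1.63 and -1.92, adjusted p = 0.000968 and 0.000353, limma). At the last step Nkain2 fell further (log2FC -1.33, adjusted p = 0.00302, limma), and the log2FC of Nkain4 was -0.27 (adjusted p = 0.447, limma).

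Ank3, which encodes ankyrin-G, an adaptor that anchors the pump to the spectrin skeleton, was highest at clonal expansion. It measured 15493 and 19208 pseudo-counts there and 1212 and 1502 at differentiation (log2FC -3.68 ± 0.19, adjusted p = 8.42e-08, limma). Ank2, for ankyrin-B, fell already at clonal expansion (log2FC -2.03, adjusted p = 1.17e-06) and rose at differentiation (log2FC 1.01, adjusted p = 7.86e-05, limma). Hsd11b1, the enzyme that regenerates active glucocorticoid, rose from 457 and 290 pseudo-counts at clonal expansion to 71045 and 61126 at differentiation (log2FC 7.50, adjusted p = 2e-09, limma). Nr3c2, the mineralocorticoid receptor through which aldosterone raises pump expression in the kidney, fell at clonal expansion (log2FC -3.00, adjusted p = 6.33e-07) and rose at differentiation (log2FC 2.43, adjusted p = 9.88e-07, limma), an order it shared with Fxyd1 in these 2 steps. Wnk4, a kinase that controls sodium chloride transport, rose at quiescence (log2FC 1.29, adjusted p = 0.000419) and at differentiation (log2FC 2.09, adjusted p = 9.52e-07, limma).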

How the data were processed

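Single reads of 100 nt came from unstranded TruSeq libraries of total RNA, per the labels' protocols. CASAVA 1.8.2, edgeR and mm9 were used, per the submitters' processing notes, and the aligner and gene models are not given in the sources used here. The deposited values are one signal per gene and library, pseudo-counts that the authors adjusted for library size. They carry decimals, so models for raw counts were not used. Genes whose mean over the 8 libraries reached 10 (14647, all 4 members among them) were fitted as log2(value + 1) on stage with limma 3.58.1 in R 4.3.3 (trend on, 4 residual and 9.78 total degrees of freedom, two-sided, Benjamini-Hochberg over all genes, threshold 0.05); the median SE of a log2FC was 0.142. The fit was tested on simulated data. Python 3.11.15, pandas 2.3.3 and numpy 2.4.6 did the rest. Lengths are GENCODE M21's longest transcripts.

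The members and gene lists were chosen with earlier results of these data known. Named beside the members were Atp1b4 and the other FXYD genes (further pump genes are not reported here), the 3 genes most like each member, chromosome neighbours, and from each of 4 more lists (calcium pumps and exchangers, sodium entry, potassium exit, regulators) up to 3 genes per direction and stage pair with the largest called change, no overlap of libraries and a mean reaching 50 where they were higher. Marker lists of other cell types are given where they touch a result. Same-numbered libraries deviated together only in part (r of 0.013 to 0.354 between stages), so experiment number was not used as a block in the reported fit.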

Additional observations from a re-analysis of the deposited data

How the results depend on the processing

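Over the 6 stage pairs, counts of called genes stayed within 1.5 times in 105 of 108 alternatives, and 419 of 426 log2FC of the members kept their sign. For quiescence against proliferation 3472 genes were called, 1757 with low genes kept, 1942 with only those 2 stages fitted, and 1304 to 3536 with a library left out (1304 without proliferation 2). With every library scaled to the same total, the log2FC of clonal expansion against quiescence was -0.14 for Atp1b1 and 0.71 for Atp1b3. With quantile normalization it was -0.21 for Atp1b1, -1.23 for Atp1b2 and 0.69 for Atp1b3, and the log2FC of differentiation against clonal expansion was -3.79 for Atp1b1, -1.12 for Atp1b2 and 1.56 for Fxyd1. Leaving out a library moved the last comparison to between -4.09 and -3.82 for Atp1b1 and to between -0.90 and 0.06 for Atp1b2, and quiescence against proliferation to between 2.38 and 3.08 for Fxyd1. Dividing by transcript length changed the log2 ratio of Atp1b1 to Atp1b3 to 0.38, 1.17, 0.32 and -3.87 in the order of the stages; the length taken sets that shift, and the cause of the other moves was not tested. With experiment number as a replicate block, 4005, 10378, 10931, 10068, 10209 and 9854 genes were called, more than by the reported fit in each comparison. The reported fit called 3472, 10071, 10694, 9717, 9927 and 9500. Both run through the 3 successive steps, then differentiation against quiescence and against proliferation, and last clonal expansion against proliferation. Over all alternatives, at the first step the counts rising and falling were 1 to 4 and 0 to 2 for calcium pumps and exchangers, 1 to 4 and 3 to 10 for sodium entry, 1 and 0 to 5 for potassium exit, and 2 to 5 and 1 to 5 for regulators. At the second step 7 to 12 regulators rose, and at the last 4 to 7 calcium pumps and exchangers rose and 3 to 7 potassium genes fell. Low counts limit the values of Atp1b2 and Fxyd4, and per-kilobase values rest on 1 transcript per gene.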

Other observations

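Calcium pumps and exchangers, of which the sodium-calcium exchangers run on the sodium gradient, changed in both directions at each step. Of 18 listed symbols 17 were in the table and 12 were tested. The other, Slc8b1, is a later symbol of Slc24a6, which was in the table. The counts that rose and fell were 2 and 1 at quiescence against proliferation and 4 and 6 at clonal expansion against quiescence. They were 7 and 3 at differentiation against clonal expansion, and the median log2FC at the 3 steps was 0.08, -0.71 and 1.19. As shares, 16.7%, 33.3% and 58.3% rose and 8.33%, 50% and 25% fell. Genes changed in both directions over the whole series too. Of all genes tested, 11.9%, 34.4% and 36.8% rose and 11.8%, 34.4% and 36.2% fell at these steps. Slc8a1, the exchanger NCX1, measured 12303 and 15963 pseudo-counts at quiescence and 1543 and 1977 at clonal expansion (log2FC -3.00, adjusted p = 8.56e-07, limma). Atp2a3, the calcium pump SERCA3, rose from 16.9 and 18.4 at clonal expansion to 1912 and 1460 at differentiation (log2FC 6.49, adjusted p = 9.03e-09, limma), and Atp2b4, a plasma membrane calcium pump, from 4186 and 4877 to 30198 and 33847 (log2FC 2.82, adjusted p = 6.08e-08, limma).

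Carriers and channels that let sodium in numbered 46, of which 32 were tested. At the 3 successive steps 2, 12 and 14 rose and 8, 11 and 10 fell (median log2FC -0.09, 0.06 and 0.35). As shares, 6.25%, 37.5% and 43.8% rose and 25%, 34.4% and 31.2% fell. Of all genes tested, 11.9%, 34.4% and 36.8% rose and 11.8%, 34.4% and 36.2% fell. Slc5a6, the sodium-dependent vitamin transporter for biotin and pantothenate, rose from 3446 and 3887 pseudo-counts at clonal expansion to 24193 and 24829 at differentiation (log2FC 2.74, adjusted p = 1.57e-08, limma), and Slc1a3, a glutamate transporter, rose by a log2FC of 2.39 (adjusted p = 8.21e-08). Slc38a1, a glutamine transporter, fell by 4.07 on the log2 scale (adjusted p = 8.6e-08). Potassium channels and cotransporters numbered 33, of which 16 were tested, with 1, 3 and 7 rising and 3, 9 and 7 falling at these steps (median log2FC -0.19, -0.62 and 0.27). Beside the same shares over all genes, 6.25%, 18.8% and 43.8% of this list rose and 18.8%, 56.2% and 43.8% fell. Kcnk3, the leak channel TASK-1, which returns pumped potassium to the outside, rose from 66.1 and 88.6 to 24877 and 19736 at differentiation (log2FC 8.16, adjusted p = 8.44e-10, limma). Kcnn4, a calcium-activated channel, rose at clonal expansion (log2FC 2.10, adjusted p = 2.17e-06) and fell at differentiation (log2FC -3.45, adjusted p = 4.09e-08, limma).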
